A study of Mus musculus with 10 samples.

Results

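The 288 regions described here were suspected of being sites where reads from repeated DNA pile up in libraries of normal mouse liver, and they were chosen by measured values. They are the union, merged wherever peaks overlapped on chromosomes 1 to 19, of 3 sets of peaks from formalin-fixed, paraffin-embedded (FFPE) tissue. The first was all 112 peaks of H3K27Ac by FiT-seq, a protocol that opens the tissue with proteinase K and sonication. The second was the 206 peaks of H3K4me2 by FiT-seq with a deposited value, read as the −log10 of the q-value, of 15 or more. The third was all 55 peaks of H3K27Ac by FiTAc-seq, which heats the sections overnight in detergent buffer before sonication, at 80 °C with 40 min of sonication. The 9 lists held 340052 peaks on these chromosomes in all.

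Repeated DNA can look like a chromatin mark in a sequencing experiment. Satellite arrays at centromeres and the genes for ribosomal RNA exist in many copies, of which an assembly holds only a few, so reads from all copies pile up on those few positions and can be called as a narrow, high peak with or without an antibody. H3K27Ac, acetylation of a lysine on the tail of histone H3, marks active promoters and enhancers. H3K4me2, dimethylation of another lysine of that tail, covers promoters and enhancers more broadly, and in liver both marks lie on the genes that hepatocytes use.

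The series had 10 samples of mouse liver, 1 library for each condition but one, and an FFPE input DNA that was not analysed here. The other FFPE libraries were H3K27Ac by FiTAc-seq, heated to 50 °C or 65 °C and sonicated for 40 or 5 min, written here as 50 °C/40 min and so on. The condition 65 °C/5 min had 2 libraries, called the pair. The comparison library was H3K27Ac from fresh frozen liver, crosslinked and sonicated in a standard protocol. All FFPE and fresh frozen H3K27Ac libraries used the same antibody lot, and the labels name no age, sex or strain. Nothing in the labels says whether the pair came from separate animals or blocks, so its spread may be technical. The 6 lists that played no part in choosing the regions are the 5 FiTAc-seq lists at 50 °C and 65 °C and the fresh frozen list, and the results below rest on them. These lists held 64465 peaks at 50 °C/40 min, 38099 at 50 °C/5 min, 63188 at 65 °C/40 min, 59431 and 55848 in the pair, and 47238 in fresh frozen liver.

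The 288 regions fell into 3 classes by the lists that supplied them. A FiT-seq H3K27Ac peak lay in 111 regions. Of these, 66 also held an H3K4me2 peak of 15 or more, 8 held that and an 80 °C peak, and 37 held neither. Another 132 regions had an H3K4me2 peak of 15 or more and no FiT-seq H3K27Ac peak, and 2 of them also held an 80 °C peak. The last 45 regions came from the 80 °C list alone. Because the H3K4me2 value chose members, peaks close to the limit differ little in it. The 3 just inside had 15.02, 15.05 and 15.06 and were met by 6, 3 and 3 of the 6 other lists. The 3 just outside had 14.9598, 14.9598 and 14.9995 and were met by 6, 5 and 2.

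A region was counted as met when a peak of a list overlapped it by at least 1 bp. Over all 288 regions, the FFPE lists met fewer than the fresh frozen list, an order that depended on the H3K4me2 members. Without the H3K4me2 peaks, 65 °C/40 min met 55.3%, the pair 61.6% and fresh frozen liver 52.2%. Over all regions, at 50 °C, 84 of 288 regions were met with 40 min of sonication, or 29.2% (exact 95% binomial interval 24.0 to 34.8), and 97 with 5 min, or 33.7% (28.2 to 39.5). At 65 °C, the list of 40 min met 131, or 45.5% (39.6 to 51.4), and the pair of 5 min met 136 and 147, a mean of 49.1% ± 2.70 (SD, n = 2). Fresh frozen liver met 181, or 62.8% (57.0 to 68.4). For comparison, the same shares were taken over the 11410 H3K4me2 peaks under the limit. There the lists met 70.6% at 50 °C/40 min, 49.4% at 50 °C/5 min, 69.2% at 65 °C/40 min, 77.4% and 74.1% in the pair, and 70.3% in fresh frozen liver. All 6 lists therefore met a smaller share of the regions than of these H3K4me2 peaks. Over all regions the gap was smallest in the fresh frozen list, which again depended on the H3K4me2 members. Without the H3K4me2 peaks, 50 °C/5 min met 45.3%, closer to its 49.4% than the 52.2% of fresh frozen liver was to its 70.3%. With an H3K4me2 limit of 10, the share at 50 °C/40 min was 52.1%. The intervals cover counting error only, and regions that lie side by side are not independent.

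The regions were not alike, and the pooled shares hide opposite patterns. All 45 regions from the 80 °C list alone were met in each of the 5 FFPE lists (100%, interval 92.1 to 100), and 43 in fresh frozen liver (95.6%, interval 84.8 to 99.5). Of the 111 regions with a FiT-seq H3K27Ac peak, 5 were met at 50 °C/40 min (4.50%, interval 1.48 to 10.2) and 27 at 50 °C/5 min (24.3%, interval 16.7 to 33.4). There were 41 at 65 °C/40 min (36.9%, interval 28.0 to 46.6), 45 and 61 in the pair (47.7% ± 10.2, SD, n = 2), and 37 in fresh frozen liver (33.3%, interval 24.7 to 42.9). The 132 H3K4me2 regions without a FiT-seq H3K27Ac peak were met in 34 cases at 50 °C/40 min, 25 at 50 °C/5 min, 45 at 65 °C/40 min, and 46 and 41 in the pair. Those are 18.9% to 34.8% in FFPE lists, where fresh frozen liver met 101, or 76.5% (interval 68.4 to 83.5). Without the 45 regions of the 80 °C list alone, the shares were 16.0% at 50 °C/40 min, 21.4% at 50 °C/5 min, 35.4% at 65 °C/40 min, 39.7% ± 3.20 (SD, n = 2) in the pair and 56.8% in fresh frozen liver.

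**Figure D1:**
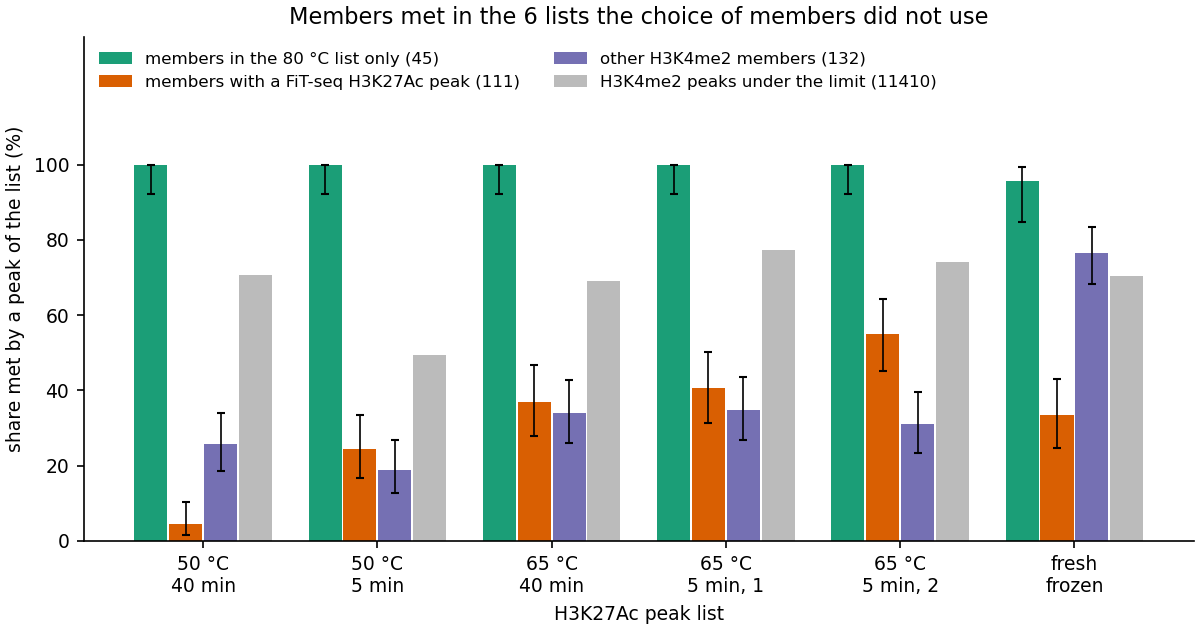
Share of regions met by a peak of each of the 6 H3K27Ac lists that did not choose them (percent), by class, with exact 95% binomial intervals as error bars; grey bars give the 11410 H3K4me2 peaks under the limit, and "1" and "2" are the libraries at 65 °C/5 min. The 45 regions of the 80 °C list alone stand at 95.6% to 100% throughout, while regions with a FiT-seq H3K27Ac peak stand between 4.50% and 55.0%.

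Of the 288 regions, 48 (16.7%) were met by none of the 6 lists, 86 (29.9%) by 1 and 64 (22.2%) by all 6. Among the H3K4me2 peaks under the limit, 14.9% were met by none, 5.72% by 1 and 42.1% by all 6. The regions were thus met more often by a single list, and less often by all 6, than that set. That list was fresh frozen liver for 69 of the 86, the second library at 65 °C/5 min for 11, 65 °C/40 min for 3, the first library at 65 °C/5 min for 2, and 50 °C/5 min for 1. The 64 regions met by all 6 lists comprised 43 from the 80 °C list alone, 20 H3K4me2 regions and 1 with a FiT-seq H3K27Ac peak. The 20 H3K4me2 regions met by all 6 had a median width of 483.5 bp and a median H3K4me2 value of 16.7, close to the limit. The 24 H3K4me2 regions met by none had a median width of 220 bp and a median value of 20.7. The 88 met by 1 to 5 lists had 327 bp and the highest median value, 25.6, so the value did not follow the number of lists.

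FFPE tissue and fresh frozen liver both met 112 of the 288 regions (38.9%), which were 18 of the 111 with a FiT-seq H3K27Ac peak, 51 of the 132 H3K4me2 regions and 43 of the 45 of the 80 °C list alone. Of H3K4me2 peaks under the limit, 67.4% were met in both. Regions met in at least 1 of the 5 FFPE lists but not in fresh frozen liver made up 50 of the 111 with a FiT-seq H3K27Ac peak (45%), 7 of the 132 H3K4me2 regions (5.30%) and 14.8% of H3K4me2 peaks under the limit. Regions met in fresh frozen liver and in none of the FFPE lists made up 19 of the 111 (17.1%), 50 of the 132 (37.9%) and 2.93% of H3K4me2 peaks under the limit. Each condition but one had 1 library and the fresh frozen protocol also differed, so tissue, protocol and library cannot be told apart.

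**Figure D2:**
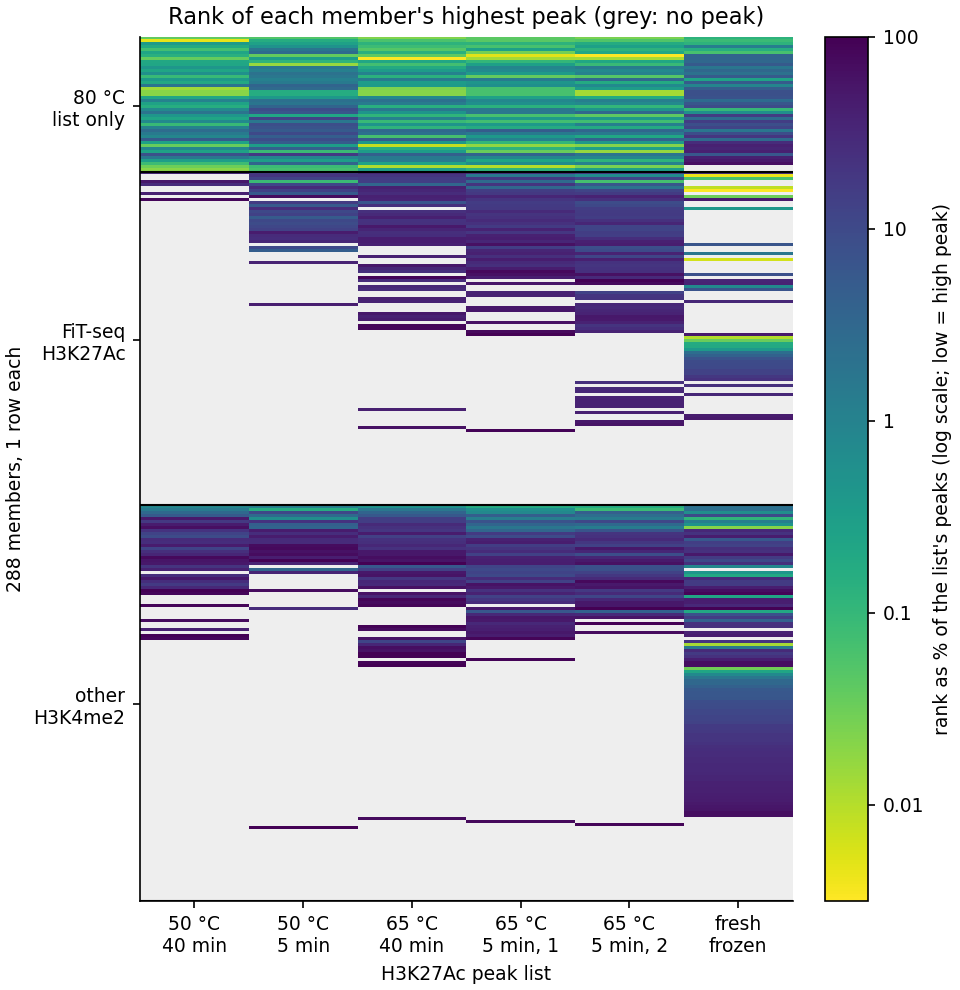
Rank of the highest peak at each of the 288 regions (rows) in each of the 6 lists (columns), as a percentage of the list's peaks on a log colour scale, where a low percentage is a high peak and grey means no peak. The 45 regions of the 80 °C list alone hold high ranks in the FFPE columns, and a block of H3K4me2 regions has a peak in the fresh frozen column only.

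Between lists of different temperature and sonication, the shares differed to a different degree in the regions and in other H3K4me2 peaks. The lists also differed in library and in length, so these cannot be told apart from the conditions. At 40 min, the share of regions met at 65 °C minus that at 50 °C was 16.3 percentage points, and at 5 min it was 15.5 points. The SD of the pair was 2.70 points. Over H3K4me2 peaks under the limit the same differences were -1.45 points at 40 min and 26.4 points at 5 min, with an SD of 2.34 points. The share at 40 min minus that at 5 min was -4.51 points at 50 °C and -3.65 points at 65 °C in the regions. It was 21.3 points at 50 °C and -6.55 points at 65 °C in the H3K4me2 peaks under the limit. In the class with a FiT-seq H3K27Ac peak, 40 minus 5 min was -19.8 points at 50 °C and 65 °C minus 50 °C at 40 min was 32.4 points. The SD of the pair was 10.2 points there. In the other H3K4me2 regions, 40 minus 5 min was 6.82 points at 50 °C and 1.14 points at 65 °C, and 65 °C minus 50 °C was 8.33 points at 40 min and 14.0 at 5 min, with an SD of 2.68 points. At 50 °C the classes thus differed in the sign of the sonication difference. With 1 library in 3 of these conditions, none of these differences has a test, and the value of -4.51 points at 50 °C turned to 16.8 when the H3K4me2 limit was lowered to 10. The value of 16.3 points for temperature at 40 min was then 4.08, and it was 10.8 with the 30000 highest peaks of each list. At 5 min the value of 15.5 was 26.5 with a limit of 10.

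The 45 regions of the 80 °C list alone differed from the others in rank, width and position, and whether reads pile up on repeats there was not tested. Their own 80 °C peaks were narrow, with a median of 164 bp and a range of 146 to 319 bp, and 146 bp was the smallest width in every list. They lay inside some of the highest and widest H3K27Ac peaks of FFPE liver. The median rank of the peak they met was 148 at 50 °C/40 min, 638 at 50 °C/5 min, 139 at 65 °C/40 min, and 132 and 116 in the pair, and in fresh frozen liver it was 2374. Ranks run from 1 for the highest peak within a list. The median width of that peak was 3036, 1821 and 2865 bp in those 3 single lists, 4784 and 4459 bp in the pair, and 964 bp in fresh frozen liver. The whole 80 °C peak lay within the FFPE peak in all 45 regions, except 1 at 50 °C/5 min, and within the fresh frozen peak in 40 of 43. These regions are called here by the list that chose them. None lay at a chromosome start, where only 0.413% to 0.510% of the other peaks of the lists lay. By its choice the class holds no H3K4me2 peak of 15 or more, and 3 of 45 met one of lower value. The 45 regions were spread over 16 chromosomes.

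The region at chromosome 11, 98636073 to 98636391, ranked 93 at 50 °C/40 min, 14 at 50 °C/5 min, 26 at 65 °C/40 min, and 3 and 1 in the pair. Its fresh frozen peak ranked 1739. Chromosome 5, 22939440 to 22939669, ranked 24, 116 and 1 in those single lists, 8 and 7 in the pair, and 1679 in fresh frozen liver. Both were among the highest FFPE peaks and far lower in fresh frozen tissue. They were picked after their values were seen. The regions without a fresh frozen peak were chromosome 2, 27535747 to 27535910, and chromosome 5, 123591641 to 123591786. The first ranked 20, 33 and 7 in the single FFPE lists and 6 and 14 in the pair, in peaks of 4700 to 7714 bp. The second lay in FFPE peaks of 6988 to 10822 bp. On chromosome 19, the regions starting at 23215791 and 23216297 fell in the same FFPE peak, so the 45 regions stand for 44 peaks in each FFPE list.

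Of the 9 lists, 8 was the most that met any 1 region, and 7 regions reached it, of which 3 were of this class. Chromosome 1, 180335981 to 180336241, had −log10 q-values of 129 at 50 °C/40 min, 40.1 at 50 °C/5 min, 137 at 65 °C/40 min, 148 and 131 in the pair, 11.1 at 80 °C, and 102 in fresh frozen liver, where it ranked 59. Its H3K4me2 peak had only 4.95 and ranked 7242. Chromosome 10, 84039754 to 84039920, ranked between 292 and 2501 in the FFPE lists and 288 in fresh frozen liver. Chromosome 19, 55818308 to 55818482, ranked between 60 and 3157 in the FFPE lists and 3965 in fresh frozen liver. These values depend on each library's depth and background, which the lists do not give, so their sizes cannot be compared between lists. Ranks depend on list length, which ran from 55 to 64465 peaks.

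The other 4 of those 7 had a FiT-seq H3K27Ac peak, and their peaks were 146 to 784 bp wide in every list. Chromosome 9, 35112716 to 35113188, was the highest peak of both the H3K4me2 list, with 315, and the fresh frozen list, with 310, and its ends were identical in both at 473 bp. It ranked 2 of 55 peaks at 80 °C and 35 of 112 by FiT-seq H3K27Ac. It ranked 5228 at 50 °C/5 min, 20588 at 65 °C/40 min, and 9152 and 6766 in the pair, and it was not met at 50 °C/40 min. Chromosome 14, 104736076 to 104736329, had no fresh frozen peak. It was met by all 5 FFPE lists at ranks between 2076 and 18102, ranked 7 at 80 °C and 8 by FiT-seq H3K27Ac, with peaks of 146 to 269 bp. The others were chromosome 2, 98502368 to 98503150, and chromosome 9, 2999969 to 3000706, described with their neighbours below.

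The highest peaks of each list also differed by class. The 10 highest peaks of the FFPE lists held 1 to 3 at these regions, and these were all of the 80 °C class. Of the 10 highest fresh frozen peaks, 7 were at these regions, 5 of them with a FiT-seq H3K27Ac peak and 2 at H3K4me2 regions. Among the 200 highest peaks, regions accounted for 26 at 50 °C/40 min, 17 at 50 °C/5 min, 24 at 65 °C/40 min, 26 and 29 in the pair, and 27 in fresh frozen liver. The totals ranged less than their make-up. Peaks elsewhere among the 200 highest were wide, at medians of 2145 to 4316 bp in FFPE lists and 783 bp in fresh frozen liver. All other peaks of the lists had 286 to 354 bp and 346 bp. A wide peak meets a region more easily, and the part of width in these counts was not tested. Regions made up 16% to 28% of the 50 highest peaks and 3.1% to 4.6% of the 1000 highest. Without the 80 °C class, the FFPE lists kept 0, 2, 0, 1 and 3 among the 200 highest, in the same order, and fresh frozen liver kept 20. Over whole lists, 84 of 64465 peaks lay at regions at 50 °C/40 min and 97 of 38099 at 50 °C/5 min. At 65 °C they were 135 of 63188 with 40 min, and 137 of 59431 and 147 of 55848 in the pair. Fresh frozen liver had 188 of 47238. The 5 highest fresh frozen peaks were all regions with a FiT-seq H3K27Ac peak. The chromosome 9 site was followed by chromosome 1, 197067697 to 197068177, and chromosome 6, 103598986 to 103599345. Next came chromosome 19, 61275530 to 61275825, and then chromosome 12, 3109897 to 3110181. Their H3K4me2 ranks were 4, 2, 9 and 7. In the second library at 65 °C/5 min the first 3 ranked 365, 22916 and 1103, and the last had no peak.

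Presence in FFPE H3K27Ac lists changed little between H3K4me2 values of 2 to 5 and 5 to 10, and fell with rising value from 10 upward. Of H3K4me2 peaks with values from 2 to 5, 70.9% were met at 50 °C/40 min, and 71.2% of those from 5 to 10, 62.3% of those from 10 to 15, 39.4% of those from 15 to 20, 10.8% of those from 20 to 50 and 4.55% of those of 50 or more. At 50 °C/5 min the first and last of these bands had 50.7% and 16.7%, at 65 °C/40 min 70.1% and 22.7%, and in the pair 78.0% and 24.2% in the first library and 74.6% and 24.2% in the second. Fresh frozen liver did not follow this course, with 66.6%, 72.8%, 71.4%, 62.1%, 58.1% and 78.8% over the 6 bands. The bands held 4536, 6290, 584, 66, 74 and 66 peaks. The shares fell from the band of 10 to 15 upward in each FFPE list, and the 3 bands above it are the regions themselves. FiT-seq H3K27Ac peaks met 0% of the H3K4me2 peaks in the lowest band and 56.1% in the highest, a relation that the choice of regions used.

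**Figure D3:**
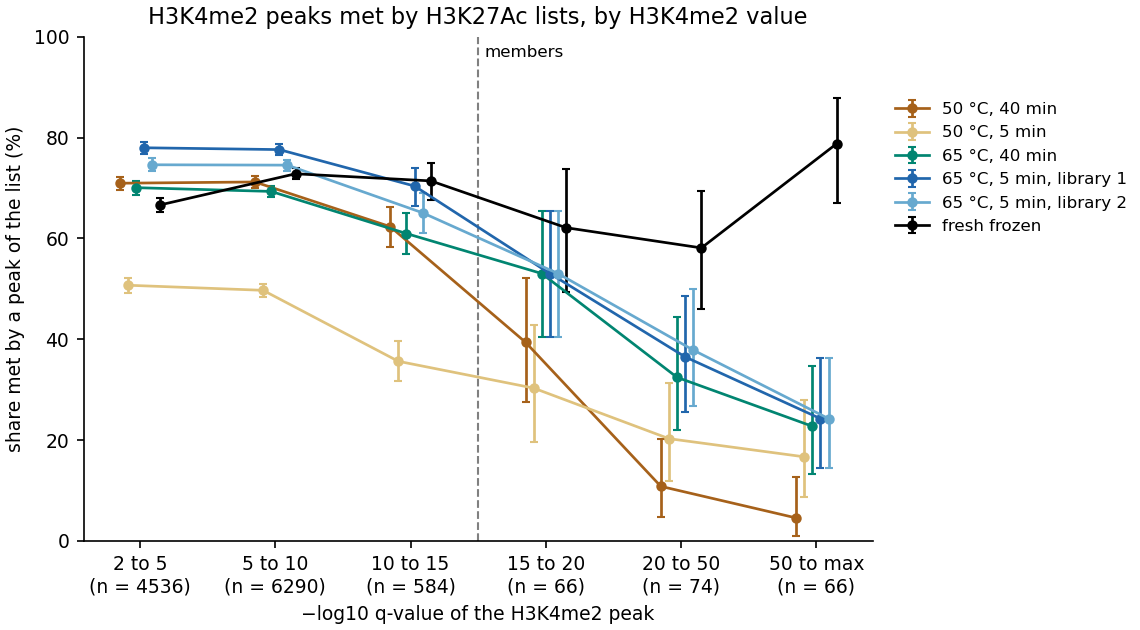
Share of H3K4me2 peaks met by a peak of each H3K27Ac list (percent), by band of the H3K4me2 −log10 q-value, with exact 95% binomial intervals; bands right of the dashed line are members. The 5 FFPE lines fall to between 4.55% and 24.2% in the highest band, and the fresh frozen line stands at 78.8% there.

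The regions had a median width of 250.5 bp and a range of 146 to 5939 bp. In the H3K4me2 list, peaks at regions had a median of 256 bp and all other peaks one of 241 bp, so they were not narrower than all others there. With other peaks weighted to the same spread of values the ratio was 0.709, so they were narrower than peaks of like value. By class, the regions had medians of 250 bp with a FiT-seq H3K27Ac peak, 324.5 bp for the other H3K4me2 regions and 164 bp for the 80 °C list alone. In the 6 other lists, peaks at regions of the FiT-seq H3K27Ac class had medians of 249 bp at 50 °C/40 min, 248 bp at 50 °C/5 min, 258.5 bp at 65 °C/40 min, 237 and 245 bp in the pair, and 293 bp in fresh frozen liver. All other peaks of those lists had medians of 330, 286, 315, 354, 353 and 346 bp, so this class was narrower in every one. Its peaks numbered 5, 27, 42, 45, 61 and 39 there, so the median at 50 °C/40 min rests on few. Peaks at the other H3K4me2 regions had medians of 369, 361.5, 317, 725.5, 654 and 325 bp in the same order. They were wider than other peaks in both 50 °C lists and in the pair, by contrast with 65 °C/40 min and fresh frozen liver, where the medians lay close together. In those 50 °C lists and the pair their median values were also higher, at 13.4, 7.39, 13.1 and 13.2 against 8.90, 5.65, 7.54 and 7.44. With other peaks weighted to like values, the ratio over all classes went from 2.17 to 0.855 at 50 °C/5 min. It went from 2.02 to 0.613 in the pair and stayed above 1 at 50 °C/40 min, at 1.39. The weighting was not done by class. Widths are compared here only within a list. Neighbouring peaks stood as little as 36 bp apart at 50 °C/40 min and 65 °C/40 min, and no less than 76 bp in the other 4 lists. At 80 °C/40 min the smallest gap was 201 bp. The source of this spacing and its part in the widths were not tested.

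**Figure D4:**
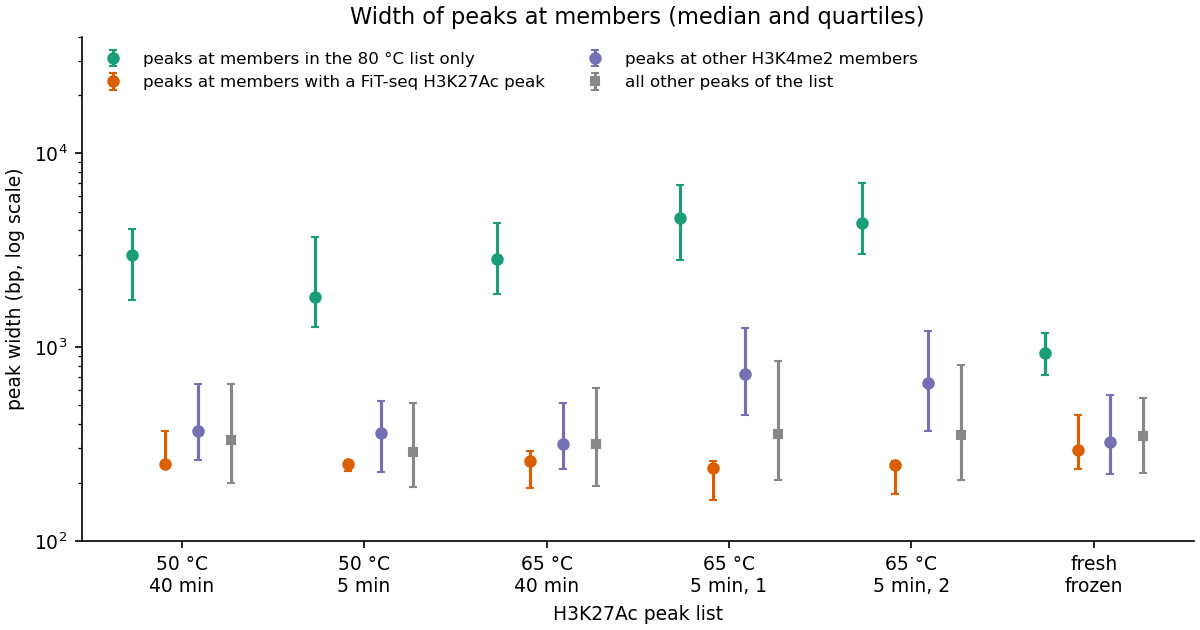
Width of peaks (bp, log axis) at the 3 classes of regions and of all other peaks in each of the 6 lists, as medians with quartiles. Peaks at the 80 °C class have medians of 1810.5 to 4664.5 bp in FFPE lists, and peaks at regions with a FiT-seq H3K27Ac peak stay between 237 and 293 bp in all 6. The latter class has only 5 peaks at 50 °C/40 min.

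Peak ends were compared to see how alike the outlines of the regions were between libraries. This comparison was chosen after the data were seen. Of the 136 H3K4me2 peaks of 15 or more that met a fresh frozen H3K27Ac peak, 53 had both ends within 20 bp of it, or 39%. The share was 1.20% of 417 peaks with values from 10 to the limit and 0.723% of all 8020 under the limit that met one. The median overlap, as the shared length over the joint length, was 85.3% at or over the limit and 33.0% under it. Matches with FFPE lists were fewer, at 2.70% of 37 peaks at 50 °C/40 min, 21.7% of 46 at 50 °C/5 min, 21.6% of 74 at 65 °C/40 min, and 19.2% of 78 and 25.3% of 79 in the pair. The pooled FFPE shares hide a split. For H3K4me2 peaks of 15 or more that met a FiT-seq H3K27Ac peak, they were 33.3% of 3, 42.9% of 21, 37.9% of 29, 43.8% of 32 and 50% of 38, in the same order. For those that did not, they were 0% of 34, 4% of 25, 11.1% of 45, 2.17% of 46 and 2.44% of 41. With fresh frozen liver these classes had 48.6% of 35 and 35.6% of 101. Under the limit the shares with FFPE lists were 0.227% to 0.532%. The matched peaks came from different antibodies and, for the fresh frozen list, from different tissue preparation. FiT-seq H3K27Ac and H3K4me2 peaks of 15 or more matched in 44 of 74 cases, or 59.5%, and FiT-seq H3K27Ac and H3K4me2 peaks under the limit in 10 of 28, or 35.7%. Every FiT-seq H3K27Ac peak was taken into the regions, so here the H3K4me2 peaks on both sides of the limit lay in regions. These shares therefore cannot be set beside the contrasts at the limit in the other lists. Narrow peaks have less room for their ends to differ, and the part of width in these shares was not tested.

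Regions were concentrated at chromosome starts. Mouse chromosomes carry their centromere at one end, and the mm9 build opens each autosome with a gap of 3 Mb before the first base of known sequence. Within 0.5 Mb of that gap lay 45 of 288 regions, or 15.6% (exact 95% interval 11.6 to 20.3), on 9 chromosomes. With an H3K4me2 limit of 10, which gave 858 regions, the share was 6.06%. Of the other peaks of the lists, 0.413% to 0.510% lay there. The 45 were 16 of 111 with a FiT-seq H3K27Ac peak, 29 of 132 H3K4me2 regions and 0 of 45 from the 80 °C list alone, which allows up to 7.87% (exact 95% bound). Chromosome 9 held 25 of them, chromosome 11 held 5, chromosomes 16 and 17 held 4 each, chromosome 18 held 3, and chromosomes 4, 6, 12 and 13 held 1 each. Of these 45 regions, 3 were met at 50 °C/40 min, 3 at 50 °C/5 min, 8 at 65 °C/40 min, 8 and 8 in the pair, and 41 in fresh frozen liver. That is at most 17.8% for any of these FFPE lists and 91.1% for fresh frozen liver. At the far ends of chromosomes, within 0.5 Mb of the last base covered by any peak, lay 7 of 288 regions, or 2.43% (0.983 to 4.94), and 0.691% to 0.905% of other peaks. The far ends were examined after the data were seen.

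Runs of at least 3 regions with gaps of up to 100 kb numbered 8 and held 50 regions, or 17.4%, and 4 of the 8 lay at chromosome starts. There were 4 runs with gaps of up to 10 kb. The longest run was chromosome 9, 2999969 to 3038307, with 24 regions of 146 to 738 bp in 38339 bp, separated by gaps of 109 to 9201 bp. This stretch is known for satellite-like sequence in mouse assemblies. Of the 24, the FFPE lists met 0 at 50 °C/40 min, 1 at 50 °C/5 min, and 4 each at 65 °C/40 min and in both libraries of the pair. Fresh frozen liver met 23, at ranks from 15 to 18352 and a median of 6099. Of the lists that chose the regions, H3K4me2 had 23, FiT-seq H3K27Ac 12 and the 80 °C list 1. Fresh frozen liver was the single list of the 6 at 16 of these regions. The first region, 2999969 to 3000706, had an H3K4me2 value of 141. Its FiTAc-seq peaks at 50 °C and 65 °C, of 147 to 297 bp, ranked between 19884 and 26803 and were absent at 50 °C/40 min. Its fresh frozen peak of 718 bp ranked 15. The next region on this chromosome, 3258756 to 3258995, stood apart from the run and was met by none of the 6 lists.

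**Figure D5:**
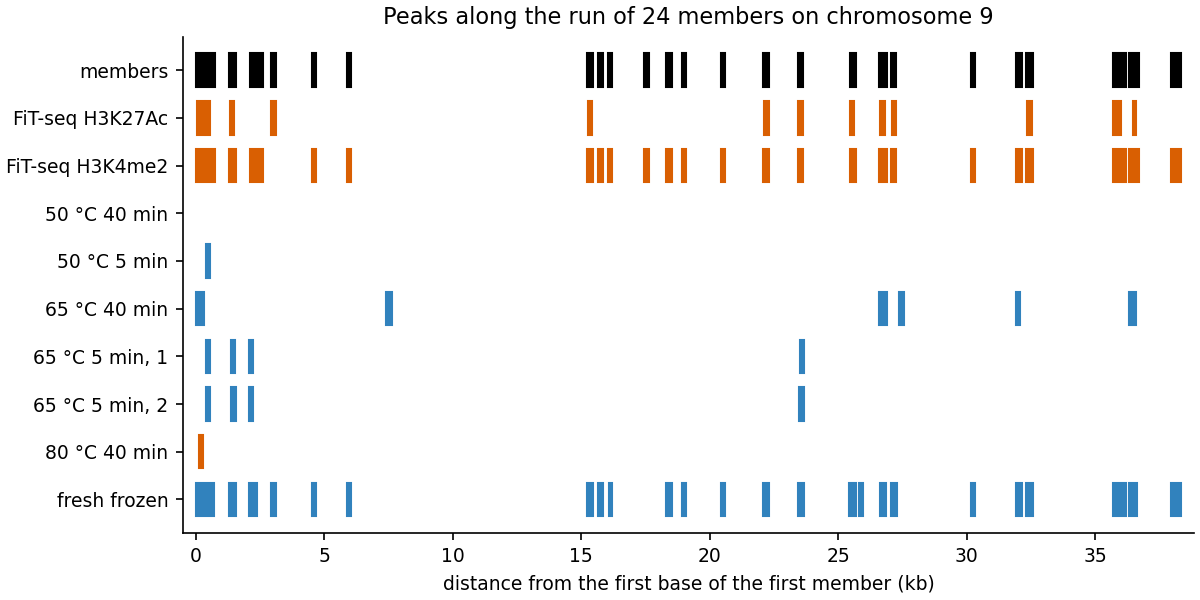
Peaks of each list along the run of 24 regions on chromosome 9, drawn to scale against the distance in kb from the first base of the first region; orange rows are lists that chose the regions and blue rows are lists that did not. The 50 °C/40 min row is empty, and fresh frozen peaks lie at 23 of the 24 regions.

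The run on chromosome 2, 98502368 to 98507484, had 4 regions within 5117 bp, at another site known in mouse assemblies for satellite pile-up. All 4 held FiT-seq H3K27Ac and H3K4me2 peaks, and 3 held 80 °C peaks, which ranked 1, 6 and 3 in that list. The FFPE lists met 0 at 50 °C/40 min, 2 at 50 °C/5 min, 3 at 65 °C/40 min, and 3 and 3 in the pair, against 4 in fresh frozen liver. The first region was 783 bp wide, and its peaks ranked 4953 at 50 °C/5 min, 10502 at 65 °C/40 min, and 11053 and 6752 in the pair, and 29 in fresh frozen liver. The other 3 ranked no higher than 8481 in any of the 5 FFPE lists, and 351, 3022 and 199 in fresh frozen liver. All 4 were thus lower in the FFPE rankings than in the fresh frozen ranking.

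The other long runs were on chromosome 11, 3000376 to 3094157, with 5 regions, chromosome 17, 3020465 to 3084571, with 4, and chromosome 6, 47600706 to 47726716, with 4. On chromosome 11 the FFPE lists met 2, 1, 3, 2 and 2 of the 5 regions, given as 50 °C/40 min, 50 °C/5 min, 65 °C/40 min and the pair, and fresh frozen liver met 5. On chromosome 17 they met 1, 1, 1, 2 and 2 of the 4, and fresh frozen liver met 4. The chromosome 6 run, which is not at a start, was met in 0, 1, 1, 1 and 1 of 4 regions and in 1 in fresh frozen liver. Of the 3 runs of 3 regions, that at the start of chromosome 18 was met in 0 regions by every FFPE list and in 2 by fresh frozen liver. Chromosome 2, 181652034 to 181666112, was met in 0 by every FFPE list and in 3 by fresh frozen liver. Chromosome 8, 19784667 to 19892822, was met in 2, 1, 2, 2 and 2 by the FFPE lists and in 2 by fresh frozen liver. Runs met in full by fresh frozen liver thus lay both at chromosome starts and elsewhere.

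The widest region was chromosome 17, 39979886 to 39985824, a single FiT-seq H3K27Ac peak of 5939 bp that ranked 2 in its list, with a −log10 q-value of 92.7. This is the part of mm9 known to hold a copy of the pre-ribosomal RNA gene, which is transcribed by RNA polymerase I, and it was the only region between 39 and 41 Mb of that chromosome. The H3K4me2 list had 3 peaks there, the highest of 27.7 at rank 107 and 3298 bp wide. Of the 6 other lists, 3 had peaks, all low. The 65 °C/40 min list had 2, at best rank 16825, the second library of the pair had 1, at rank 53947, and fresh frozen liver had 3, at best rank 16177 and 397 bp wide. Both 50 °C lists and the first library of the pair had none. The next widest regions were chromosome 4, 3016669 to 3018354, and chromosome 11, 3092925 to 3094157. The first was 1686 bp wide and was met by a fresh frozen peak of 1709 bp alone. The second was 1233 bp wide and met by 5 of the 6 lists, at best rank 11783.

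Some regions with very high H3K4me2 values were met by none of the 6 lists. The highest was chromosome 6, 3151366 to 3151635, with an H3K4me2 value of 143 at rank 13 and a FiT-seq H3K27Ac value of 35.9 at rank 19. A pair of neighbours on chromosome 1, 24619839 to 24620081 and 24619466 to 24619716, had H3K4me2 values of 93.8 and 84.9 and no FiT-seq H3K27Ac peak. Chromosome 9, 110183699 to 110183954, had 88.8 and ranked 44 in the FiT-seq H3K27Ac list, and a region on chromosome 18 had 80.6 and ranked 38 there. All 5 were 243 to 270 bp wide. The input library that would show whether reads stack there without an antibody was not analysed here, and the sequence and repeat content of the regions, which need the mm9 genome, were not tested.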

How the data were processed

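The data are 1 peak list per library from chromatin immunoprecipitation sequencing of mouse liver. Per the submitters' processing notes, the authors used BWA, MACS2 and the mouse build mm9. Their versions, thresholds and control are not given in the sources used here. Column 5 of each list was read as the −log10 q-value deposited by the authors, from its floor near 2 and its steps. Read depth is unknown. The regions, classes and comparisons were chosen with earlier results of these data known.

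Peaks on chromosomes 1 to 19 were kept, starts are given 1-based, and ranks were taken within each list with ties sharing the best rank. A peak met a region at 1 bp of overlap. Intervals are exact 95% binomial (Clopper-Pearson) and cover counting error only. No test was run, because every condition but 65 °C with 5 min had 1 library. The input DNA was not analysed here.

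Regions named were the 6 met by most of the 9 lists with ties broken by the mean rank percentile over the 6 other lists (a 7th that tied was also named under chromosome 9), the 5 largest runs, the 5 highest H3K4me2 regions met by none of the 6 lists, the 3 widest, those at chromosome 9 up to 3.5 Mb, chromosome 2 at 98 to 99 Mb and chromosome 17 at 39 to 41 Mb, and the 3 peaks on either side of the limit. Others are said to be chosen after their values were seen, as were the 5 highest fresh frozen regions and both regions without a fresh frozen peak in the 80 °C class. Planned sequence measures were not run, since the mm9 genome was not used here, and no gene names or sequences are given.

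Alternatives covered the H3K4me2 limit, joining of peaks, leaving out each contributing list, chromosomes, overlap, a value floor, equal list lengths, either library of the pair, the extent of a start and of a run, and the number of highest peaks. Widths and highest peaks without the 80 °C list, and the tolerance for ends, were added after the data were seen. The overlap and merging steps were tested on simulated data. Scripts ran in Python 3.11.15 with pandas 2.3.3, numpy 2.4.6 and scipy 1.17.1, and figures were drawn with matplotlib 3.10.9.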

Additional observations from a re-analysis of the deposited data

Results flagged for a closer look

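The contributing lists also held peaks outside chromosomes 1 to 19, which the regions leave out. The FiT-seq H3K27Ac list had 5 peaks on the mitochondrial chromosome. The H3K4me2 list had 4 peaks of 15 or more there and 6 on chromosome X. The 80 °C/40 min list had 9 of its 65 peaks on chromosome Y. Of the 6 other lists, mitochondrial peaks numbered 0 at 50 °C/40 min, 1 at 50 °C/5 min, 0 at 65 °C/40 min, 0 and 13 in the pair at 65 °C/5 min, and 11 in fresh frozen liver. Chromosome Y peaks numbered 0 in all 5 FFPE lists of these and 73 in fresh frozen liver. These peaks were picked out as signal in data outside the comparisons, with no control list to set them against, and their source was not tested.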

How the results depend on the processing

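No paired analysis was possible because only 65 °C with 5 min had replicates and no test was run. Over 26 results and 165 alternatives, 98 values kept their place, 57 moved and 10 reversed; the cause was not tested. The number of regions was 858 with an H3K4me2 limit of 10 and 159 without the H3K4me2 peaks, and runs numbered 19 and 2 there, 5 with a limit of 20 and 4 when joined at 10 kb. The share at chromosome starts was 6.06% with a limit of 10 and 10.7% without the H3K4me2 peaks. With a limit of 10, the shares met were 52.1% at 50 °C/40 min, 56.2% at 65 °C/40 min, 61.8% in the pair and 69.6% in fresh frozen liver. Without the H3K4me2 peaks they were 45.3% at 50 °C/5 min, 55.3% at 65 °C/40 min, 61.6% in the pair and 52.2% in fresh frozen liver. Fresh frozen liver met 71.3% without the FiT-seq H3K27Ac peaks. Without the 80 °C peaks the shares were 16.0%, 21.4%, 35.4%, 39.7% and 56.8%, in the order 50 °C/40 min, 50 °C/5 min, 65 °C/40 min, the pair, and fresh frozen liver. With the 30000 highest peaks of each list, 65 °C/40 min met 35.1% and the pair 43.8%. The difference of 40 minus 5 min at 50 °C reversed to 16.8 points with a limit of 10, and was -9.44 with a limit of 20, -13.8 without the H3K4me2 peaks and -8.33 with 30000 peaks, where it was -8.68 at 65 °C. The difference of 65 minus 50 °C at 40 min was 4.08 with a limit of 10, 19.3 with a limit of 20 and also without the 80 °C peaks, 23.9 without the H3K4me2 peaks, 13.5 with peaks of at least 5 and 10.8 with 30000 peaks. At 5 min it was 26.5 with a limit of 10, 18.3 without the 80 °C peaks and 11.1 with 30000 peaks. Leaving out either library of the pair gave 47.2% to 51.0% of regions met, -5.56 to -1.74 points for 40 minus 5 min at 65 °C, 13.5 to 17.4 points for 65 minus 50 °C at 5 min, and 17.4% to 20.5% met by none. Regions made up 16%, 22%, 28%, 28% and 28% of the 50 highest peaks at 50 °C/5 min, at 65 °C/40 min, in the pair and in fresh frozen liver. Of the 1000 highest they made up 4%, 3.1%, 3.9%, 4.6%, 4.5% and 4.4%, and of the 200 highest without the 80 °C peaks 0%, 1%, 0%, 0.5% and 1.5% in the 5 FFPE lists. The ratio of region to other peak widths over all classes was above 1 in each list, but with other peaks weighted to the same spread of −log10 q-values it reversed to 0.709 for H3K4me2, 0.855 at 50 °C/5 min, 0.664 at 65 °C/40 min, 0.613 in the pair and 0.708 in fresh frozen liver, and was 1.39 at 50 °C/40 min. Without the 80 °C peaks it was 0.882 at 50 °C/5 min, 0.845 at 65 °C/40 min, 0.757 in the pair and 0.902 in fresh frozen liver, and 1.11 at 50 °C/40 min. The share of H3K4me2 peaks sharing both ends with a fresh frozen peak was 23.5% at 10 bp and 50.7% at 50 bp.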
